A study of Homo sapiens with 6 samples.

Results

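Expression of 9 apolipoprotein genes was examined in pancreatic differentiation cultures of human embryonic stem cells, on 6 Illumina expression arrays. The genes were APOA1, APOA2, APOA4, APOB, APOC1, APOC3, APOE, APOH and APOM, taken by symbol from a table of 31410 gene symbols, in which each had 1 row. The set was chosen by gene family with the measured difference between HUES8 and H1 cultures known, so that difference is described here without a test, while the comparison of processed with live samples is tested. The cells came from H1 and HUES8, both established lines, which were differentiated stepwise to stage 6, the last stage, at which insulin-expressing cells are present. H1 supplied differentiations 1 and 2 and HUES8 differentiation 3. Each culture was split into a live part, extracted fresh, and a processed part that went through paraformaldehyde fixation, permeabilization, antibody staining and the sorter, with all cells kept, before extraction with a kit for fixed material. None of the 6 samples was purified for a cell type, so each array reports a mixed culture, and HUES8 is represented by a single culture.

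Apolipoproteins are the protein components of lipoproteins, the particles that carry cholesterol and triglycerides in blood. They are made mainly by hepatocytes and by the absorptive cells of the intestine, and in the embryo also by the visceral endoderm of the yolk sac. APOB is the scaffold on which very low density lipoproteins and chylomicrons are built. APOA1 and APOA2 are the main proteins of high density lipoprotein, and the smaller APOC proteins and APOE move between particles, where APOC proteins regulate lipolysis and APOE serves as a ligand for receptors of the LDL receptor family. Pancreatic protocols start from definitive endoderm, the germ layer that also gives rise to liver and intestine.

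The values are background-subtracted intensities normalized between arrays. Differences are given on the log2 scale after adding 20 to each intensity, which understates changes of dim genes. The median intensity over all symbols ranged from 22.5 to 27.4 across the 6 arrays. A gene was tested when it reached an intensity of 40 on at least 3 arrays, which 12653 genes did, among them 7 of the 9 apolipoprotein genes. APOA4 reached 40 on 2 arrays and APOH on 0, and neither was tested. The 4 H1 arrays alone could meet this requirement, but the 2 HUES8 arrays alone could not. A gene bright only in HUES8 was therefore not tested, which limits any count of lower against higher genes. The endocrine state of the cultures was visible in INS, which encodes insulin, with intensities of 4386 and 4133 in H1 differentiation 1, 2627 and 1898 in H1 differentiation 2 and 4612 and 5069 in HUES8 (live and processed). The β cell transcription factor gene NKX6-1 stayed below 40 on every array, with a highest value of 34.8.

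All 7 tested apolipoprotein genes were lower on both HUES8 arrays than on the 4 H1 arrays, a pattern that 18.5% of all tested genes shared. At least 2-fold lower in HUES8 than the mean of H1 were 6 of the 7, against 3.55% of all tested genes, and 2 of the 7 were at least 4-fold lower, against 0.545%. None was 2-fold higher (2.05% of all tested genes were). The median difference of the 7 genes, HUES8 minus H1, was -1.37, beside 0.02 for all tested genes. Because these genes were picked with this contrast known, the counts describe the genes and support nothing about the family. In whole cultures, fewer cells that express a gene and less RNA per cell cannot be told apart, and the line cannot be told apart from its single culture.

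**Figure D1:**
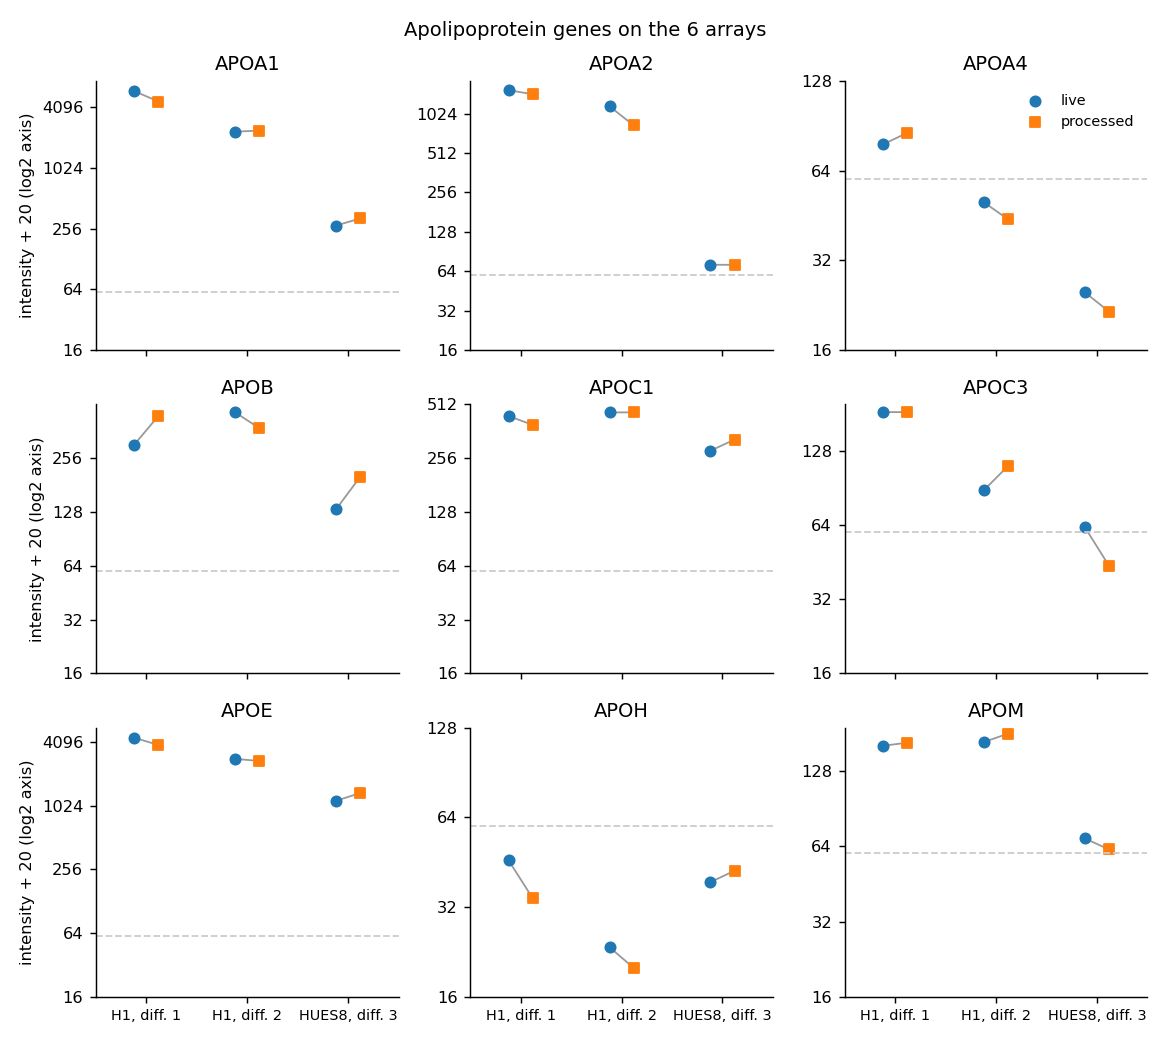
Intensity plus 20 of each apolipoprotein gene on a log2 axis, for live (circles) and processed (squares) samples of the 3 differentiations, joined within a culture; the dashed line marks an intensity of 40 and scales differ between panels. HUES8 lies furthest below H1 for APOA1 and APOA2 and least for APOC1, and APOH stays under the dashed line in all 6 samples.

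APOA1 and APOA2 differed most between the lines. APOA1, which encodes the main protein of that particle, had intensities of 5905 (live) and 4648 (processed) in H1 differentiation 1, 2327 and 2381 in H1 differentiation 2, and 254 and 303 in HUES8. The lowest H1 array stood 7.67 times above the highest HUES8 array. HUES8 was 11.9-fold lower than the mean of H1 (-3.57 on the log2 scale), with -3.76 in the live samples alone and -3.37 in the processed samples alone. Only 9 tested genes had a more negative difference, which places APOA1 at rank 10 of 12653.

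APOA2, the second protein of high density lipoprotein, stood at 1527 and 1423 in differentiation 1, at 1145 and 813 in differentiation 2, and at 51.8 and 51.6 in HUES8. HUES8 was thus close to the limit of 40 on both arrays. The difference was -4.08, or 16.9-fold, at rank 6 of 12653. Adding 20 compresses a difference down to this level, and the ratio of the mean intensities without the addition was 23.7, against 13.7 for APOA1. The lowest H1 array lay 15.7 times above the highest HUES8 array.

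APOA4, found on chylomicrons and high density lipoprotein and made chiefly by the intestine, was dim. It gave 58.5 and 65.7 in differentiation 1, 30.1 and 23.9 in differentiation 2, and 5.0 and 1.54 in HUES8. Only the 2 arrays of differentiation 1 exceeded 40, so the order of the other 4 arrays lies in the range of weak signals. With the dim arrays set to 40, differentiation 1 was at least 1.37-fold above HUES8.

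APOB, whose product gives triglyceride-rich particles their structure, had intensities of 283 and 419 in differentiation 1, 440 and 355 in differentiation 2, and 112 and 180 in HUES8. The spread within a culture was wide for this gene, and the lowest H1 array was 1.57 times the highest HUES8 array. The difference between the lines was -1.26 over all samples, -1.50 in the live samples and -1.02 in the processed samples.

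APOM, a lipocalin on high density lipoprotein that carries sphingosine 1-phosphate, was the most even gene among the H1 arrays. It gave 141 and 146 in differentiation 1, 147 and 160 in differentiation 2, and 48.8 and 42.1 in HUES8. The line difference of -1.37 compared with 0.09 between the H1 cultures, differentiation 2 minus 1. The lowest H1 array was 2.90 times the highest HUES8 array.

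APOE, the receptor ligand, remained bright in every culture. Its intensities were 4488 and 3829 in differentiation 1, 2822 and 2700 in differentiation 2, and 1123 and 1330 in HUES8. The 3 cultures did not overlap, and HUES8 was 2.74-fold below the mean of H1 (-1.45). The gap between the lowest H1 and the highest HUES8 array was 2.03-fold.

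APOC1, an exchangeable apolipoprotein of triglyceride-rich and high density particles, differed least among the tested members. It gave 421 and 373 in differentiation 1, 442 and 442 in differentiation 2, and 262 and 306 in HUES8, with a lowest H1 array 1.22 times the highest HUES8 array. The difference was -0.53, a value below which 11.5% of all tested genes lay. In the live samples it was -0.68 and in the processed samples -0.39.

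APOC3, an inhibitor of lipoprotein lipase, followed a graded order. It gave 164 and 164 in differentiation 1, 68.7 and 91.2 in differentiation 2, and 42.8 and 23.7 in HUES8. The processed HUES8 sample was under 40, and with that array set to 40 HUES8 was at least 2.20-fold lower (2.58-fold as measured). H1 differentiation 2 lay closer to HUES8 (-0.92) than the mean of both H1 cultures did (-1.37).

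APOH, which encodes the phospholipid-binding plasma protein β2-glycoprotein 1, never reached 40. Its intensities were 25.9 and 14.2 in differentiation 1, 3.47 and -2.73 in differentiation 2, and 18.8 and 22.4 in HUES8. This was the only member for which HUES8 was not below both H1 cultures. No fold is given for signals this weak.

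**Figure D2:**
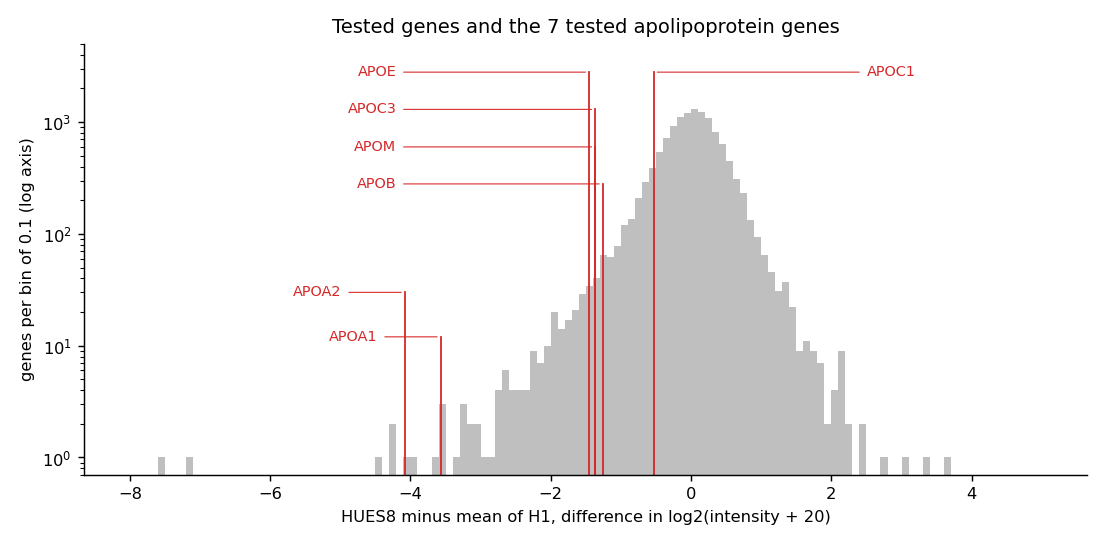
Histogram of the difference HUES8 minus mean of H1 over 12653 tested genes (x axis, log2 scale; y axis, genes per bin, log axis), with red lines at the 7 tested apolipoprotein genes. APOA2 (-4.08) and APOA1 (-3.57) stand in the far left tail, APOB, APOC3, APOE and APOM lie between -1.26 and -1.45, and APOC1 is at -0.53.

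The tested members were also compared by their profiles over the 6 samples. Likeness was measured as the root mean square distance between log2 values after each gene was centred on its own mean, with no test. The profiles were not scaled, so the distance largely reflects the size of the line difference. APOC3 and APOE were nearest to each other (0.29), followed by APOB and APOM (0.29), and APOA1 and APOA2 were 0.37 apart. The most distant were APOA2 and APOC1 (1.71).

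Several of these genes are neighbours in the genome. In RefSeq gene order (assembly GRCh38.p14), APOA5, APOA4, APOC3 and APOA1 follow each other on chromosome 11, and APOE, APOC1, APOC4 and APOC2 on chromosome 19. On chromosome 11 the genes beside the cluster barely differed between the lines. SIK3, a protein kinase gene next to APOA1, gave 493 to 716 in H1 and 507 to 661 in HUES8, a difference of -0.05, and ZPR1 on the other side stood at 0.05. APOA5, which lies between ZPR1 and APOA4 and whose product promotes triglyceride lipolysis, stayed under 40 on all 6 arrays, with a highest intensity of 17.2. APOC3 and APOA1, at -1.37 and -3.57, lay between these genes, as did APOA4, whose HUES8 signal was under 40.

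On chromosome 19 the picture was less uniform. TOMM40, which encodes a subunit of the mitochondrial import pore and lies directly beside APOE, was higher in HUES8 by 0.49, and NECTIN2, a cell adhesion gene on its far side, was lower (-0.93). APOE and its neighbour APOC1 differed by -1.45 and -0.53. APOC4 and APOC2, which follow APOC1, stayed below 40 everywhere, with highest intensities of 17.4 and 20.8. The genes beside the other members varied as well. On chromosome 6, C6orf47 next to APOM stood at -0.05, BAG6 on the other side at -0.22 and PRRC2A beyond it at -0.40. On chromosome 1, TOMM40L next to APOA2 stood at -0.21, and on chromosome 2, LDAH next to APOB at -0.05. On chromosome 17, PRKCA, a protein kinase gene next to APOH, was higher in HUES8 by 0.79.

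**Figure D3:**
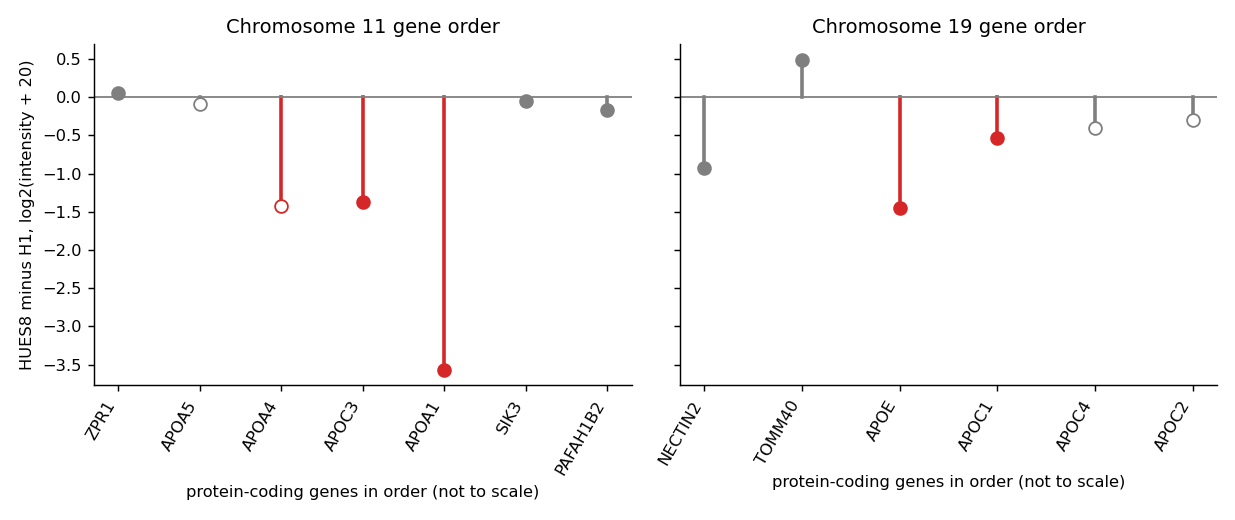
Difference HUES8 minus H1 (y axis, log2 scale) for protein-coding genes in their order on chromosomes 11 and 19, members in red and other genes in grey; open circles mark genes that did not reach an intensity of 40 on 3 arrays. APOA1 (-3.57) lies beside SIK3 (-0.05), and APOE (-1.45) beside TOMM40 (0.49).

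Promoter sequences were printed for members with contrasting line differences: APOA2, which differed most, APOM, which was even in H1 and lower in HUES8, and the neighbours APOE and APOC1. The RefSeq table (GRCh38.p14) held promoters, from 250 bases before to 50 after the gene start, for 6 of the 9 members, and none for APOA1, APOB and APOC3. Sequences run 5′ to 3′ on the strand of the gene, and capitals mark matches, on either strand, to a FOXA motif (TGTTTAC) or an E box (CACCTG). For APOE the first of 3 listed starts is shown, and it held no match.
APOA2, chr1:161223579-161223878, minus strand: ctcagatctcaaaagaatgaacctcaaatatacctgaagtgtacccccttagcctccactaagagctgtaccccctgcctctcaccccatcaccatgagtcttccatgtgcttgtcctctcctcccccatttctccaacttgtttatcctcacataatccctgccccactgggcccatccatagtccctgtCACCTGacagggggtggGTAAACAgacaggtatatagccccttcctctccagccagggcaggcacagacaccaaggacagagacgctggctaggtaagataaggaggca
APOM, chr6:31655644-31655943, plus strand: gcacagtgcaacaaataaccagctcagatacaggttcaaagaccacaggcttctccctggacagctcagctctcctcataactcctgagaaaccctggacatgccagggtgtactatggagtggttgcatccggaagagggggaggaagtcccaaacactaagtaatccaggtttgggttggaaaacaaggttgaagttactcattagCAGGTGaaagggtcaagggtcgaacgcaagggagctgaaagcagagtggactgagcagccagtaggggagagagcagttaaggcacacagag
APOE, chr19:44905546-44905845, plus strand: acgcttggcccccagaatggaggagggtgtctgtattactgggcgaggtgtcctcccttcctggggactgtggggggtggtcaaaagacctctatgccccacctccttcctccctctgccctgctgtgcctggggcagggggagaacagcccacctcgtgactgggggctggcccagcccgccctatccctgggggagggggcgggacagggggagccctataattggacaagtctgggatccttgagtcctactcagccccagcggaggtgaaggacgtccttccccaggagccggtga
APOC1, chr19:44914422-44914721, plus strand: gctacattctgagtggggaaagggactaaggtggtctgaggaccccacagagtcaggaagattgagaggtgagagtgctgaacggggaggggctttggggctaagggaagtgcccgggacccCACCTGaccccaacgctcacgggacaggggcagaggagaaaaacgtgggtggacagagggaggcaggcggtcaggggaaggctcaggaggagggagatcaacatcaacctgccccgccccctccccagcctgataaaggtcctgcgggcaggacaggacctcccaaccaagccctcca

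Among the 6 members with a promoter, the FOXA motif was found in APOA2 alone, 42 bases before the start. It was found in 3.42% of 35116 promoters of the same length. APOA1, APOB and APOC3 could not be searched. The E box hexamer CACCTG was present in APOA2, APOA4, APOC1 and APOM, 4 of the 6 members searched, which held 8 promoters. It was present in 20.6% of all promoters, and these shares were not compared by a test. The TATA box (TATAAA), the nuclear receptor element (AGGTCA) and an HNF4 motif (CAAAGTCCA), present in 11.5%, 13.8% and 0.384% of all promoters, occurred in none of the members' windows. No motif overlapped another. These matches describe letters in a window and are no evidence of binding.

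The H1 cultures also differed from each other, for each of the 7 tested members by less than HUES8 differed from the mean of H1. For APOC3 the live samples alone gave -1.05 between the H1 cultures and -1.02 between the lines, so there it was not by less. APOA1 was 2.22-fold lower in differentiation 2 than in differentiation 1 (-1.15), with -1.34 in live and -0.96 in processed samples, and was the only tested member to reach 2-fold, beside 2.25% of all tested genes. After quantile normalization no member reached 2-fold. APOC3 (-0.89), APOA2 (-0.60) and APOE (-0.58) were lower in differentiation 2 as well, and for these 4 genes both arrays of differentiation 2 lay below both of differentiation 1, as was the case for 32.5% of all tested genes. APOB (0.19), APOC1 (0.15) and APOM (0.09) differed little and stood slightly higher in differentiation 2. The live samples gave 0.60 and the processed samples -0.23 for APOB, so its order depended on the sample type. The median over the 7 genes was -0.58, against -0.04 for all tested genes.

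The order of the cultures was therefore differentiation 1, differentiation 2, HUES8 for APOA1, APOA2, APOC3 and APOE. For APOB, APOC1 and APOM the H1 cultures overlapped or lay close together, and HUES8 was below both.

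Whether fixation, staining and sorting shifted the measured apolipoprotein levels was tested in the 3 pairs. No tested member was called (limma with the differentiation as a block, adjusted p from 0.639 for APOB to 0.995 for APOM), and 0% of the 12653 tested genes were. Unadjusted, 1221 genes but no member had a p under 0.05, and the methods' t-test, paired, called 0 genes after adjustment and 883 before. Subtracting live from processed values gave a mean of -0.02 ± 0.29 (SD, n = 3 pairs) for APOA1, -0.20 ± 0.25 for APOA2, 0.01 ± 0.19 for APOC1 and -0.07 ± 0.43 for APOC3. For APOE it was -0.02 ± 0.24 and for APOM 0.00 ± 0.13. The directions for APOA1, APOE and APOM turned after quantile normalization, to 0.06, 0.08 and -0.02. The 95% intervals extended from -0.37 to 0.32 for APOA1 and from -0.30 to 0.30 for APOM, so shifts within them remain possible. These intervals are not adjusted for the number of genes tested and give no detection limit. A single gene cannot pass an exact sign-flip test with 3 pairs, whose smallest p is 0.25.

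APOB had the highest mean difference, 0.28 ± 0.50 (SD, n = 3 pairs), with an interval from -0.14 to 0.70. It was higher in the processed sample of pairs 1 and 3 (0.53 and 0.60) and lower in that of pair 2 (-0.29). Without pair 2 the mean was 0.57 and the gene was called (limma, adjusted p = 0.0266), in a fit that called 5.44% of all tested genes. APOA2 was lower in the processed sample of all 3 pairs, with -0.10 and -0.48 in H1 and -0.0032 in HUES8, and was not called (adjusted p = 0.668).

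The processing effect was also compared between the lines, on the differences within pairs. No member was called (limma, adjusted p = 0.9998 for each of the 7), while 0.261% of all tested genes were. APOC3 had the most negative difference of effects, HUES8 minus the mean of H1 (-0.69), and APOB the highest (0.48). This fit has 1 residual degree of freedom and assumes that the single HUES8 pair varies like the H1 pairs.

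**Figure D4:**
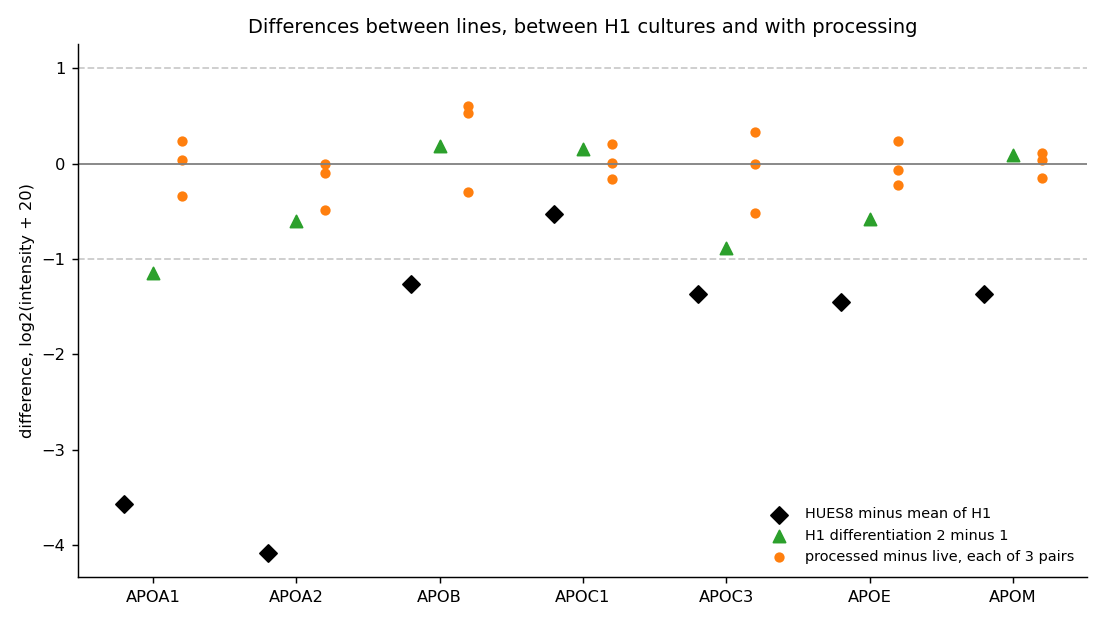
Differences on the log2 scale for the 7 tested genes: HUES8 minus mean of H1 (diamonds), H1 differentiation 2 minus 1 (triangles) and processed minus live in each of 3 pairs (circles); dashed lines mark 2-fold. The circles stay between -0.52 and 0.60, while the diamonds of 6 genes lie below the lower dashed line.

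The median absolute difference within a pair was 0.21 over the tested members, close to the 0.19 of all tested genes.

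Genes that act with apolipoproteins were examined in lists chosen with earlier results of these data known. In none of the lists was a gene called between processed and live samples, a comparison in which 0 of all 12653 tested genes were called. Of 15 other apolipoprotein genes, 13 never reached 40, among them APOC2, the activator of lipoprotein lipase, and CLU, which encodes clusterin. The remaining pair, APOO and APOOL, encode proteins of the mitochondrial inner membrane and differed between the lines by -0.03 and 0.38.

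The genes for assembly and secretion of lipoproteins did not share the line difference. Of 19, 9 were tested, 0 were 2-fold apart in either direction, and their median was 0.03. MTTP, which encodes the transfer protein that loads lipid onto APOB, gave 155 and 235 in differentiation 1, 99.1 and 57.2 in differentiation 2, and 85.4 and 91.9 in HUES8. Its HUES8 arrays thus lay between the arrays of H1 differentiation 2. SORT1, a sorting receptor for APOB (-0.71), SURF4, a cargo receptor of the endoplasmic reticulum (-0.57), and PLA2G12B (-0.55) were the lowest, and SOAT1, a cholesterol acyltransferase (0.21), KLHL12 (0.18) and SAR1B, a GTPase of COPII vesicles (0.14), the highest. Some arrays were under 40 for PLA2G12B and SOAT1, and with these set to 40 the differences were -0.41 and 0.03. The fatty acid binding protein genes FABP1 and FABP2 never reached 40.

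Among receptors and lipid transporters, 8 of 15 were tested, 0 were 2-fold apart, and the median was 0.12. SCARB1, the receptor for high density lipoprotein (-0.56), LRP2 (-0.52) and ABCA1, the transporter that loads lipid onto APOA1 (-0.52), were lowest. The receptor genes LRP8 (0.73) and VLDLR (0.52) were among the highest. Among plasma lipases and transfer proteins, 13 of 14 were on the array and 5 were tested, with a median of -0.02. LCAT, which esterifies cholesterol on high density lipoprotein, was lowest (-0.63), followed by ANGPTL4 (-0.48) and LMF1 (-0.02). Setting arrays under 40 to 40 gave -0.58 for LCAT and -0.26 for ANGPTL4. PLTP stood at 0.14. LIPG, which encodes endothelial lipase, was the only 2-fold difference, 1.77 higher in HUES8, from 111 and 133 in differentiation 1 and 367 and 375 in differentiation 2 to 773 and 791 in HUES8.

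Transcription factors known to regulate apolipoprotein genes differed in both directions. Of 24, 18 were tested, 2 were at least 2-fold lower in HUES8 and 1 higher, with a median of 0.01. FOXA1, a pioneer factor of endoderm, was among those lower (-1.59). CEBPA stood at -0.97. CEBPB was higher (2.18), and NR2F1 (0.69) and SREBF2 (0.49) followed. SREBF2 was weak, and its difference was 0.15 with arrays under 40 set to 40. FOXA2 (-0.17) and FOXA3 (0.08) differed little. HNF4A and HNF4G, nuclear receptors at the centre of hepatic apolipoprotein transcription, did not reach 40 on any array.

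**Figure D5:**
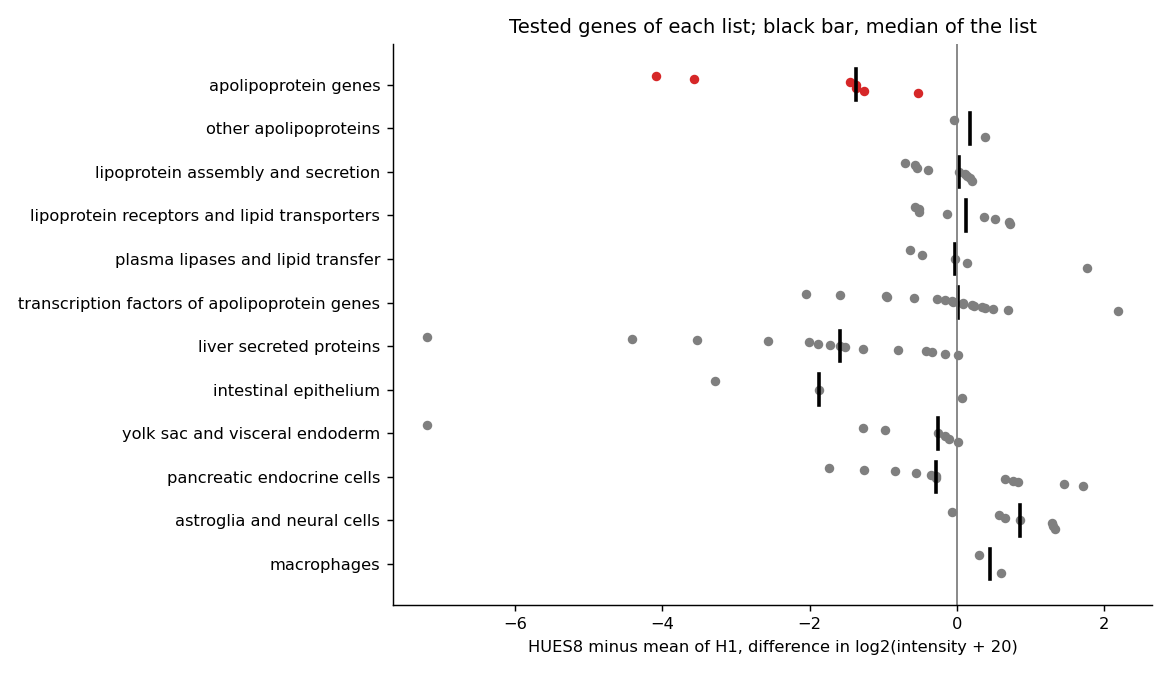
Difference HUES8 minus H1 (x axis, log2 scale) for each tested gene of the apolipoprotein set (red) and of the other lists (grey), with black bars at the medians. The apolipoprotein median is -1.37 and that of the liver secreted proteins -1.58 (-0.88 with arrays under 40 set to 40), while the lists for assembly, receptors and lipases have medians from -0.02 to 0.12.

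Markers of other cell types differed between the lines in both directions, and their part in the result was not tested. Of 15 tested genes for liver secreted proteins, 10 were at least 2-fold lower in HUES8 and 0 higher, with a median of -1.58. Several were under 40 on the HUES8 arrays, and with such arrays set to 40, a setting chosen after the values were seen, 6 remained 2-fold lower and the median was -0.88. The 4 no longer counted were FGA, FGG, RBP4 and HPX. Genes could be tested through the H1 arrays alone but not through the HUES8 arrays alone. The counts of lower and higher genes are therefore not on equal terms. The summed intensity of the whole list ran from 14273 to 21879 on the H1 arrays and from 5497 to 6722 on the HUES8 arrays. AFP made up much of the H1 sums. Without it the sum was 14168 and 14066 in H1 differentiation 1 and 7617 and 7714 in H1 differentiation 2. In HUES8 it was 5474 and 6688, so H1 differentiation 2 lay nearer to HUES8 than to H1 differentiation 1. HP, FETUB and SERPINC1 never reached 40. AFP, the fetal serum protein, spanned 6123 to 7813 in H1 and gave 22.9 and 33.6 in HUES8, and ALB, albumin, spanned 259 to 1090 in H1 and gave 30.8 and 32.9. With HUES8 arrays under 40 set to 40, ALB was at least 10.0-fold lower. The fibrinogen gene FGB was at least 15.0-fold lower. TTR, transthyretin, and AGT and SERPINA1 of the same list differed by 0.02, -0.16 and -0.34.

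Of 12 markers of intestinal epithelium, 3 were tested and 7 never reached 40, among them FABP2, SI, LGALS4 and MUC2. CDX2 was lower in HUES8 by at least 5.32-fold and CDH17 by at least 2.58-fold, while VIL1 stood at 0.07. The summed intensity ran from 744 to 902 in H1 and from 324 to 380 in HUES8. Of 10 yolk sac and visceral endoderm markers, 7 of which are also in another list, 7 were tested. AFP was lower, and RBP4, under 40 on both HUES8 arrays, was lower by at least 1.26-fold. GATA4 stood at -0.98, FOXA2 at -0.17, GATA6 at -0.11 and TTR at 0.02, and CUBN, AMN and HNF4A never reached 40. The sum ran from 9612 to 12936 in H1 and from 3383 to 4201 in HUES8. Without AFP it was 5092 and 5123 in H1 differentiation 1, 3108 and 3053 in H1 differentiation 2, and 3360 and 4167 in HUES8, so HUES8 was not below both H1 cultures.

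APOE is also made by astroglia and macrophages. The defining genes GFAP, S100B and AQP4 of astroglia stayed under 40 on all arrays. The other 7 astroglial and neural markers were tested, 3 of them at least 2-fold higher in HUES8 (STMN2, 1.32; FABP7, 1.30; SOX2, 1.28) and 0 lower, and the sum ran from 4120 to 6306 in H1 and from 8622 to 10648 in HUES8. DCX stood at -0.07, SLC1A3 at 0.57 and TUBB3 at 0.65. Of 10 macrophage markers, 2 were tested, LYZ (0.60) and CD68 (0.30), and CD14, CD163, PTPRC, C1QA, C1QB and MARCO never reached 40. LYZ was under 40 in H1 differentiation 2, and its difference was 0.34 with arrays under 40 set to 40. The macrophage sum was 470 to 727 in H1 and 510 to 885 in HUES8. The 12 pancreatic endocrine markers had a median of -0.29, with 2 at least 2-fold lower (PDX1, -1.74; GCG, -1.26) and 2 higher (PCSK1, 1.71; PAX6, 1.45). ISL1 stood at -0.84 and CHGB at 0.83, and the sum ran from 21037 to 31062 in H1 and from 24188 to 26054 in HUES8.

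The genes whose profile over the 6 samples was nearest to the mean profile of the 7 tested members were, by root mean square distance, PCDHB12, a protocadherin gene (0.03), LOC728324 (0.07), FLJ10916 (0.07), LY6E (0.08) and PDGFRA, a growth factor receptor gene (0.10). PCDHB12 gave 98.0 and 95.6 in differentiation 1, 73.1 and 70.4 in differentiation 2, and 5.53 and 8.86 in HUES8, where it was under 40. Nearest to APOA1 were C8orf55 (0.20), NPPB, which encodes a natriuretic peptide (0.21), and C21orf129 (0.26). Nearest to APOB were DKFZp761P0423 (0.11), NYNRIN (0.14) and NID2, a basement membrane gene (0.15). Nearest to APOE were ACTA1, an actin gene (0.07), SPTLC3, a subunit of serine palmitoyltransferase (0.08), and DMKN (0.09). Of these 14 genes, 7 were under 40 on both HUES8 arrays (PCDHB12, LOC728324, PDGFRA, C8orf55, C21orf129, NID2 and SPTLC3), so their distances and order rest in part on weak signals.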

How the data were processed

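Total RNA was labelled and hybridized to Illumina Human HT-12 BeadChips by the authors and summarized in GenomeStudio. The authors deposited linear intensities after background subtraction and rank-invariant normalization, with 1 row per gene symbol. Their methods' offset of 20 had not been added, since 4.37% of values lay below 0. A second deposited table was not used: none of its 6 signal columns carries a name that fits a sample. How many probes stand behind each symbol is not given in the sources used here, and the number of arrays limits the precision.

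Values below 0 were set to 0, 20 was added and log2 was taken. Tested were the 12653 of 31410 genes (40.3%) that reached 40 on 3 or more of the 6 arrays. The processing effect was fitted by limma 3.58.1 under R 4.3.3 (functions lmFit, then eBayes), with each differentiation as its own block, and Benjamini-Hochberg adjusted p under 0.05 was called. The fits were also run on simulated data, with an outcome that is not reported here. The planted shifts were far larger than the members' processing differences, so the simulation does not bear on shifts of their size. The pairing comes from the labels, which give both parts of a culture 1 differentiation. Across tested genes, deviations from the group mean correlated at 0.79, 0.62 and 0.81 within pairs. Between samples of different pairs they correlated at most at -0.13. Subtracting the mean of 3 samples leaves values that cancel out, so positive correlations within pairs bring negative ones across pairs. The contrast is therefore no independent check of the pairing. Pair 3 is also the only HUES8 pair, so line and culture cannot be told apart in these correlations. The effect in HUES8 was set against that in H1 by limma on the 3 differences within pairs. Line differences used the mean of live and processed log2 values of each culture. For bounds, arrays under 40 were set to 40 on the same offset scale. The pairs are separate differentiations.

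The apolipoprotein genes and the lists were chosen with earlier results of these data known. Named genes were all 9 members, the 3 lowest and 3 highest tested genes of each list by line difference, and the nearest genes by profile, apart from some list genes that are not reported here. Further list members were named for their role after their values were seen, and the neighbouring genes and the motifs were added then too. Symbols, gene order and promoters came from RefSeq tables of GRCh38.p14, in which all 9 members matched a current symbol. Alternatives covered the offset, the scaling, the filter, the block, the fold and each differentiation left out.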

Additional observations from a re-analysis of the deposited data

How the results depend on the processing

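The line differences of the 9 members changed sign in 0 cases over all alternatives that give one: offsets of 1 and 50, arrays scaled to a common median, quantile normalization, no filter, live or processed samples alone, and either H1 differentiation left out. Without differentiation 3 there is none. For 8 of the 9 members both HUES8 arrays lay below all 4 H1 arrays, so other offsets and subsets of samples could not turn their sign. The filter does not alter a gene's difference. The absence of sign changes was thus largely fixed in advance. A threshold of 4-fold left 2 members. The count of members 2-fold lower in H1 differentiation 2 was 2 with an offset of 1 and 0 after quantile normalization. Without pairing the samples (no replicate block), limma called 0 genes between processed and live, with 192 at an unadjusted p under 0.05, and the block changed no member's call. Leaving out a differentiation gave 12 to 688 called genes in place of 0 (105 without the first, 688 without the second and 12 without the third), and the cause was not tested. The genes called for a processing effect that differs between lines, 33, fell to 9 with an offset of 50, 12 under median scaling and 0 with no filter (697 at an unadjusted p under 0.05), and the cause was not tested. Small mean processing differences changed sign: with an offset of 1 for APOM (-0.012), and after quantile normalization for APOA1 (0.058), APOE (0.079) and APOM (-0.020). With a differentiation left out they ranged from -0.16 to 0.13 for APOA1, -0.082 to 0.11 for APOC1, -0.26 to 0.16 for APOC3, -0.15 to 0.089 for APOE and -0.053 to 0.076 for APOM. The weak signals of APOA4, APOH, APOC3, APOA2 and APOM in HUES8 limit their folds.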
